A study of Homo sapiens with 35 samples.

Results

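Peaks wider than 5 kb were taken from the list of open chromatin regions that was deposited for a series on blood progenitors with and without ectopic MYC. Members were chosen by width alone, as peaks on chromosomes 1 to 22 whose end lay more than 5000 bp beyond their start, and peaks over annotated ribosomal RNA genes were left out. The rule kept 1669 of 301177 autosomal peaks (0.554%), of 308732 peaks in all. They covered 12.4 Mb, or 5.54% of the 224 Mb of autosomal peak sequence.

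ATAC-seq maps open chromatin by letting a transposase cut and tag accessible DNA, and here it was run on blood progenitors grown from H1, a widely used line of human embryonic stem cells. The labels describe 35 libraries: 12 of doxee17 with doxycycline, which turns on ectopic MYC, 11 of doxee17 without it (both labelled batch 1) and 12 of H1 left untreated (batch 2), sampled on 6 days from day 10 to day 20 in 18 groups of 1 to 3 libraries, while the design text counts 44. All groups derive from H1, and the labels do not say whether doxee17 is 1 clone. The peak list pools libraries and holds no value for any of them, so no group could be compared, no value has a replicate error, and every fold below is the authors' own enrichment over background at a peak's summit. In bulk libraries a site open in few cells and a site weakly open in all cells cannot be told apart.

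Chromatin is opened where transcription factors and remodelling enzymes displace nucleosomes, most sharply at promoters and enhancers. A peak caller joins neighbouring stretches of dense insertion into a single peak, so a long peak can hold a promoter, nearby enhancers and the gene body between them. In blood cells such long open stretches are known at genes of lineage regulators and at heavily transcribed genes.

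Wide peaks held 81 microRNA hairpins, of which those best known in blood and vessels were chosen after their values were seen. Their mature sequences follow, from RefSeq, with the seed (bases 2 to 8, which pair with target messages) in capitals. miR-142 is abundant throughout blood, and its hairpin lay in a peak of 17749 bp (188-fold).
hsa-miR-142-3p: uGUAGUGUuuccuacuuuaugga
hsa-miR-142-5p: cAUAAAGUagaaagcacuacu
miR-126, which is expressed in endothelium and blood stem cells, lay in the peak of 22618 bp (36.5-fold) over its host gene EGFL7.
hsa-miR-126-3p: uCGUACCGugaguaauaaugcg
hsa-miR-126-5p: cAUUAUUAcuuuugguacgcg
The cluster of miR-23a, miR-27a and miR-24-2, which is active in myeloid cells, lay in a peak of 15419 bp (138-fold).
hsa-miR-23a-3p: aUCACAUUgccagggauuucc
hsa-miR-27a-3p: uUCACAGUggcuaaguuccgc
hsa-miR-24-3p: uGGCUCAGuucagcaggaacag
miR-26b lay in the peak of 16227 bp (219-fold) over CTDSP1, miR-146b, a brake on innate immune signalling, in a peak of 11446 bp (157-fold) and miR-191 in a peak of 8680 bp (157-fold).
hsa-miR-26b-5p: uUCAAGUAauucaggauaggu
hsa-miR-146b-5p: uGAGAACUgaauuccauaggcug
hsa-miR-191-5p: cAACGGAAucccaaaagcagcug
miR-195 and miR-497 share a peak of 6917 bp (217-fold) and the seed AGCAGCA.
hsa-miR-195-5p: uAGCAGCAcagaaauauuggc
hsa-miR-497-5p: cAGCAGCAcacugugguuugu
miR-10a, of the HOXB cluster, lay in a peak of 5754 bp over HOXB3 and HOXB4 (39.2-fold).
hsa-miR-10a-5p: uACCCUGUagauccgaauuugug

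In all, 81 of 1461 autosomal hairpins (5.54%) lay in 73 wide peaks, and 396 lay in narrower peaks. The hairpins of miR-142, miR-126 and the miR-23a cluster were 1553, 7818 and 2554 to 2854 bp from the summits of their peaks, so these peaks reached the hairpins from summits well outside them. A hairpin under a peak need not be its target: miR-200c and miR-141, epithelial microRNAs, lay 9914 and 10312 bp from the summit of a 15962 bp peak (167-fold) that also overlapped PTPN6, a phosphatase of blood cells, and PHB2, a mitochondrial scaffold protein.

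Promoter sequence under the wide peaks is shown for genes of 5 kinds that recur below: the related blood regulators TAL1 and LYL1, the heme enzyme ALAS1, the messenger RNA destabiliser ZFP36, the survival factor BCL2L1 and the actin-binding protein PFN1. Each stretch is the 150 bases before the annotated start, 5′ to 3′ on the gene's strand, from RefSeq on GRCh38.p14. Capitals mark matches, on either strand, to 9 motifs, and neighbouring matches can overlap: AGATAA for GATA factors, CCGGAA for ETS factors, TGTGGT for RUNX factors, CACGTG for the E-box, TGANTCA for AP-1, TTGCNNCAA for C/EBP, GGGCGG for the GC box, TATAAA for the TATA box and CCAAT for NF-Y.
TAL1, chr1:47232336-47232485, minus strand: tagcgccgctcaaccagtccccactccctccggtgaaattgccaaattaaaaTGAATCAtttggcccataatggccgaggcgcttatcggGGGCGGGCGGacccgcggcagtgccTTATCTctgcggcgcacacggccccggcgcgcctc
LYL1, chr19:13102859-13103008, minus strand: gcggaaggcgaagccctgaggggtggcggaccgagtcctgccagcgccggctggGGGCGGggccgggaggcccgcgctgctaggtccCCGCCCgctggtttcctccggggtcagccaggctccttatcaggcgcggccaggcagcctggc
ALAS1, chr3:52197933-52198082, plus strand: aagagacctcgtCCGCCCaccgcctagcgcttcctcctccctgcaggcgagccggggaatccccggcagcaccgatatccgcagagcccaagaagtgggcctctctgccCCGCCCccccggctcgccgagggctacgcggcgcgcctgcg
ZFP36, chr19:39406697-39406846, plus strand: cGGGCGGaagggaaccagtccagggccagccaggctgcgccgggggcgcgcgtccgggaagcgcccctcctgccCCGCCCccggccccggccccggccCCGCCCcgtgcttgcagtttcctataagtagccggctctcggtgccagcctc
BCL2L1, chr20:31723964-31724113, minus strand: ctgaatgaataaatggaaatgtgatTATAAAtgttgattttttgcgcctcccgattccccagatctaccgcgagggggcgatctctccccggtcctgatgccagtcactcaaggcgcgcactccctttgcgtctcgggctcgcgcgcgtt
PFN1, chr17:4948531-4948680, minus strand: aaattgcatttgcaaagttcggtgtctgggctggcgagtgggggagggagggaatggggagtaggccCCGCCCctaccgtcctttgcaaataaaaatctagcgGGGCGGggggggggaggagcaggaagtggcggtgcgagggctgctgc

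Of these 6 stretches, that of TAL1 held a GATA match 35 bases before the start and an AP-1 match 98 bases before it, and that of BCL2L1 held a TATA box match 125 bases before it. GC box matches stood in the other 4 and in TAL1. A match is a description of letters and not of binding.

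Over 300 bases around the start (250 before, 50 after), the 790 coding genes that start in a wide peak had a median GC content of 68.8% and a median of 28 CpG dinucleotides. The 11438 genes that start in another peak had 65.0% and 25, the 2872 genes that start in no peak had 47.3% and 3, and all 15100 had 63.0% and 22. These 790 genes were 5.23% of the 15100 with a promoter sequence. A GC box was in 73.3% of promoters under wide peaks and 58.9% of all promoters, a TATA box in 11.4% and 9.71%, an NF-Y site in 33.7% and 36.0%, and an ETS site in 18.7% and 23.1%. Shares for RUNX sites were 10.6% and 10.8%, for E-boxes 7.59% and 8.77%, for GATA sites 4.05% and 7.56%, for AP-1 sites 3.42% and 5.70% and for C/EBP sites 1.14% and 1.66%. Against genes that start in another peak, wide-peak promoters held the TATA box in a larger share (11.4% against 5.85%) and the ETS site in a smaller share (18.7% against 27.7%).

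Most wide peaks were not far above the threshold: the median width was 6412 bp (interquartile range 5547 to 8082 bp), and 392 of 1669 were at most 5500 bp wide. There were 216 wider than 10 kb, 58 wider than 15 kb, 15 wider than 20 kb and 4 wider than 30 kb. Just inside the threshold were peaks of 5001 bp near LY86 (255-fold), 5003 bp at TSC22D2 (117-fold) and 5004 bp at LFNG (96.4-fold). Just outside it were peaks of 5000 bp on chromosome 18 (11.8-fold), 4999 bp on chromosome 7 (98.5-fold) and 4999 bp on chromosome 9 (204-fold). Joining peaks less than 500 bp apart before measuring would raise the number from 1669 to 3863, so the number depends on where adjoining peaks were divided.

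Wide peaks were mostly strong ones, with a median fold of 72.9 (interquartile range 38.2 to 121) against 3.43 for the other autosomal peaks. Fold exceeded 100 in 589 wide peaks (35.3%) and in 1.96% of the others, and was under 10 in 87 (5.21%) and in 78.2%. Across all autosomal peaks the rank correlation of width with fold was 0.82, and among the 1669 it was 0.19, as a description of peaks that share the same pooled libraries and background. Counting error is small at this pooled depth: the exact 95% Poisson interval was 71.2 to 74.6 around the median fold and 2.50 to 3.18 around the lowest, 2.82, and it covers counting error only, since read pairs are not independent molecules.

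**Figure D1:**
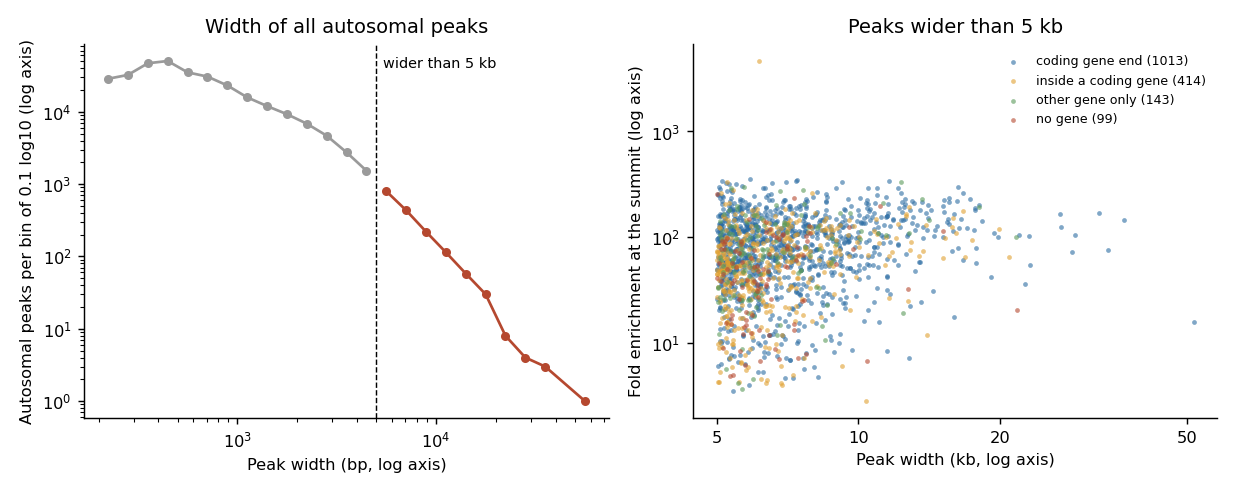
Left, number of autosomal peaks per bin of 0.1 log10 units of width, with wide peaks in red. Right, each of the 1669 wide peaks by width (kb) and fold at the summit, both on log axes, coloured by what it overlaps. The middle 50% of wide peaks sit between 38.2-fold and 121-fold, and the point near the top is the peak of 4635-fold described in the text.

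A wide peak overlapped a coding gene in 85.5% of cases. An annotated end of a coding gene lay in 1013 (60.7%), against 4.88% of the other autosomal peaks. Another 414 (24.8%) lay inside a coding gene without reaching its ends, 143 (8.57%) overlapped only other kinds of gene and 99 (5.93%) overlapped none, against 51.7%, 12.96% and 30.5%. Median fold was 85.9 at coding gene ends, 58.0 inside coding genes, 71.2 over other genes and 48.2 away from genes.

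A long peak meets more gene ends by its length, so ends were also counted per Mb of peak. Wide peaks held 145 coding gene ends per Mb and the other peaks 80.1, but the density was highest in peaks of 2 to 3 kb, at 208 per Mb, and fell to 86.9 per Mb above 15 kb. Starts and 3′ ends of the genes with a known start took different courses. Starts fell from 155 per Mb in peaks of 2 to 3 kb to 69.1 at 5 to 7.5 kb and 59.8 at 10 to 15 kb. 3′ ends rose over the same bands from 17.5 to 43.9 and 75.5 per Mb (65.2 when 3′ ends that genes share are counted once), and were 38.6 per Mb in the 58 peaks above 15 kb. Per Mb, then, wide peaks held fewer starts and more 3′ ends than peaks of 2 to 3 kb. The share of peaks that held a coding start did not fall, at 33.1%, 35.7% and 54.4% in the 3 bands named for starts. The summit was within 1 kb of a coding gene end in 664 wide peaks (39.8%) and 6.73% of the others, and 350 wide peaks (20.97%) held a gene end although their summit was farther than that from every coding gene end.

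**Figure D2:**
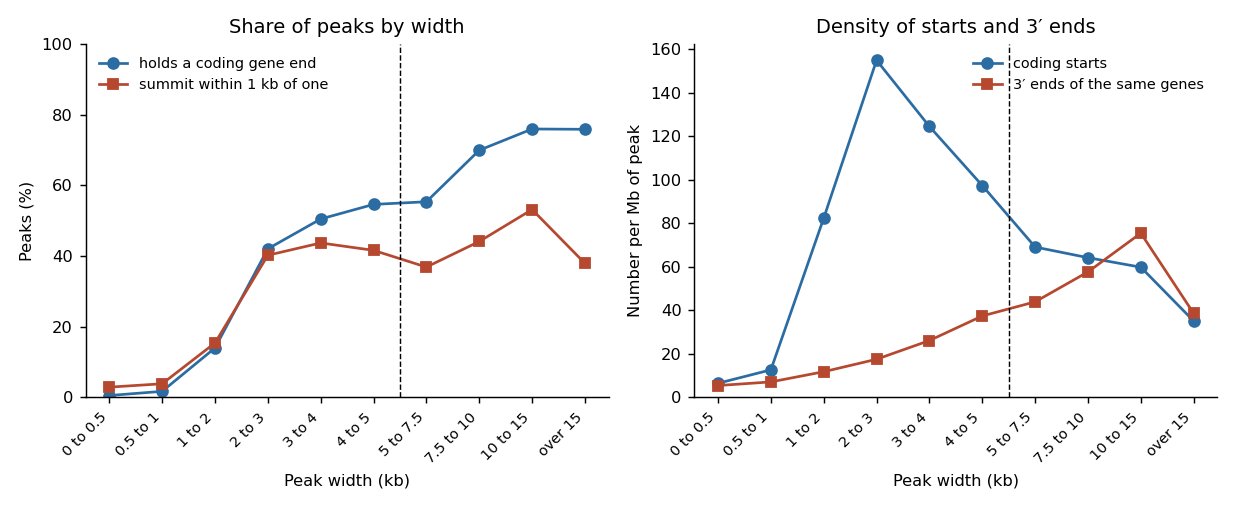
Autosomal peaks by width (kb), with the 5 kb threshold dashed. Left, percent of peaks that hold a coding gene end or have a summit within 1 kb of one. Right, coding starts and 3′ ends of the same genes per Mb of peak. Starts are densest at 2 to 3 kb (155 per Mb), and 3′ ends at 10 to 15 kb (75.5 per Mb).

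Where a wide peak held a single known coding start, it mostly reached farther into the gene than upstream of it. In these 551 peaks the median reach was 4299 bp downstream (interquartile range 2900.5 to 6357 bp) and 2164 bp upstream (1333 to 3561.5 bp). The downstream side was the longer in 396 (71.9%, exact Clopper-Pearson 95% interval 67.9 to 75.6%, counting error only). That interval takes the peaks as independent, though many lie near each other, and measures no spread between libraries. The summit stayed within 1 kb of the start in 382 (69.3%), lay farther downstream in 101 and farther upstream in 68. ALAS1, which makes the first enzyme of heme synthesis outside red cells, had its summit 18 bp before the start of a peak that ran 3975 bp upstream and 23034 bp downstream, past the end of the 16245 bp gene into TLR9, a receptor for microbial DNA. SEMA7A, a membrane-anchored semaphorin, had its summit 3 bp after the start, with 2092 bp upstream and 21045 bp downstream. TAL1 differed: its peak ran 7828 bp upstream and 21076 bp downstream, with the summit 3186 bp upstream of the start.

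Some peaks lay the other way. The peak at CBX5, a heterochromatin protein gene, ran 13073 bp upstream of its start and 984 bp into the gene. It also held all of the neighbouring gene HNRNPA1 and an end of NFE2 (14058 bp, 200-fold). The peak at PDE2A, a phosphodiesterase gene, ran 12659 bp upstream and 914 bp into the gene. Starts were known for 15100 of 19122 coding genes, so a peak with a single known start can hold others. At MYBPC3, a cardiac muscle gene, the 13438 bp upstream reached into the neighbouring gene SPI1, a master regulator of myeloid cells, and the summit of this 17851 bp peak (79.9-fold) was in SPI1. Overlap alone does not say which gene an open stretch serves.

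**Figure D3:**
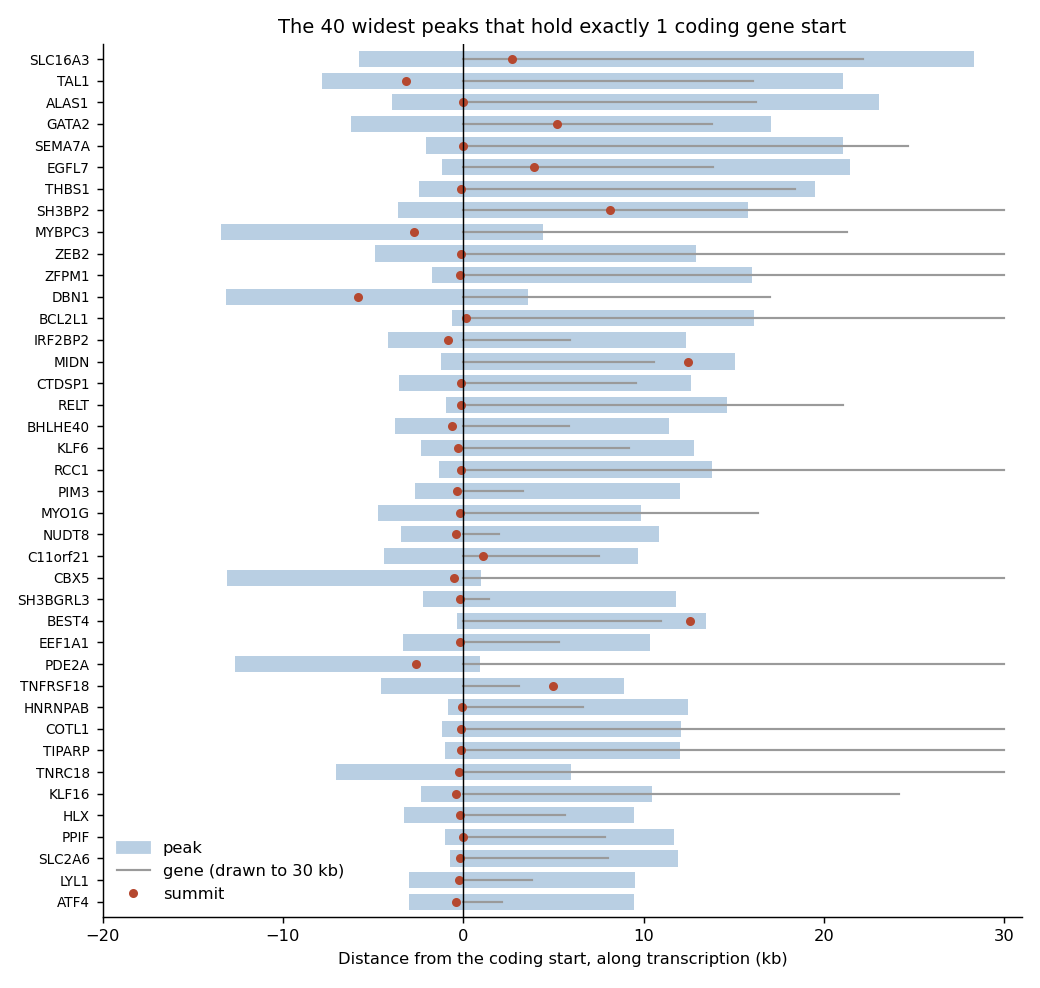
The 40 widest peaks that hold exactly 1 known coding start, drawn by distance from that start along transcription (kb). Bars are peaks, lines are genes drawn to 30 kb and red points are summits. Most bars extend farther to the right of the start than to the left, and most summits sit near 0.

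The widest peak, 51729 bp, covered most of TIMP3, a secreted inhibitor of metalloproteinases that lies within SYN3, a synapsin gene, and it was weak, at 15.9-fold, with its summit 47.3 kb into the peak. Next to it, with gaps as small as 69 bp, lay other wide peaks, and 3 together covered 99.6% of the 61.3 kb of TIMP3 at 9.70 to 65.0-fold. The second widest, 36748 bp, ran from LMNA, which encodes the nuclear lamins A and C, into SEMA4A, a semaphorin of immune cells (144-fold). The third, 34084 bp, covered most of SLC16A3, a lactate exporter, and the end of CSNK1D, a kinase of the circadian clock (75.6-fold). The fourth, 32507 bp, held all of MCL1, a survival protein of the BCL2 family on which blood progenitors depend, together with ADAMTSL4, a secreted matrix protein (168-fold), and its summit stood 0.135 kb from MCL1.

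Some of the rest of the 20 widest held ends of several genes, and each is given with the named coding genes it overlapped, predicted LOC genes left out. After TAL1, a progenitor transcription factor (28905 bp, 104.7-fold), came SH2B3, an adaptor that restrains cytokine receptor signalling, with ATXN2, an RNA-binding protein gene (28485 bp, 71.9-fold), ALAS1 with TLR9 (27010 bp, 124-fold), GRK2, a kinase that desensitises chemokine and other receptors, with ANKRD13D (26934 bp, 168-fold), GATA2, a progenitor transcription factor (23245 bp, 54.9-fold), SEMA7A (23138 bp, 102-fold), EGFL7 with AGPAT2, an enzyme of lipid synthesis (22618 bp, 36.5-fold), and THBS1, the platelet granule protein thrombospondin, with FSIP1 (21974 bp, 104-fold). A peak of 21796 bp on chromosome 4 overlapped no annotated gene (20.4-fold). Farther down stood LINC02255, a noncoding RNA gene beside SEMA7A (21663 bp, 101-fold), ZMIZ1, a transcriptional coactivator (20942 bp, 64.5-fold), ABCC4, a nucleotide exporter of platelet granules (19921 bp, 120-fold), LFNG, which modifies Notch receptors (19867 bp, 99.5-fold), and SH3BP2, an immune adaptor (19421 bp, 109-fold). The last were MPO, the neutrophil granule peroxidase, in a peak with its neighbour LPO (19132 bp, 42.1-fold), and F2RL3, a thrombin receptor of platelets, with CPAMD8, in which the summit lay (18380 bp, 142-fold). Strength did not follow this order: from the widest peak at TIMP3 (15.9-fold) to that at F2RL3, fold was lowest at TIMP3 and highest, at 168-fold, at MCL1 and GRK2.

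The wide peaks held 288 coding genes whole, with a median length of 2751 bp against 24490.5 bp for all coding genes. The longest was GRK2, at 20084 bp, followed by THBS1 at 18388 bp, ALAS1 at 16245 bp, TAL1 at 16046 bp, EGFL7 at 13823 bp and GATA2 at 13780 bp.

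The peaks of highest fold were narrower. A peak of 6161 bp on chromosome 1 (chr1:628924-635084) reached 4635-fold over a block of pseudogenes copied from mitochondrial genes, among them MTND1P23 and MTCO1P12, and mitochondrial DNA carries the same sequence, so the origin of its reads was not tested. The next were AAMP, a cell migration gene, with PNKD (5881 bp, 353-fold), then BOLA2B with SLX1A (7421 bp, 349-fold) and BOLA2 with SLX1B (5124 bp, 344-fold). These last 2 loci on chromosome 16 are near-identical copies, so their values are uncertain. GRK6, another receptor kinase (7382 bp, 338-fold), the promoter of SH2B3 (11604 bp, 337-fold) and TLN1, which encodes the integrin activator talin, with CREB3 (9223 bp, 334-fold) followed. AHRR, the repressor of the aryl hydrocarbon receptor, reached 333-fold in a peak of 5257 bp inside the gene, a peak of 12342 bp over ribosomal RNA pseudogenes on chromosome 21 reached 331-fold, and SIN3A, a corepressor, 329-fold (7036 bp). Whether reads from repeated ribosomal sequence add to the peak on chromosome 21 was not tested, so its value is uncertain too.

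Weak wide peaks seldom held a coding start. Among the 87 under 10-fold, 2 (2.30%) held a coding start, against 659 of the 1582 stronger ones (41.7%), while 33 (37.9%) held a 3′ end, against 418 (26.4%). They overlapped a coding gene in 81.6% of cases, the stronger ones in 85.7%. The lowest was a peak of 10397 bp inside FASN, the fatty acid synthase gene (2.82-fold). Next came BAP1, a histone deubiquitinase gene, with DNAH1 (5408 bp, 3.54-fold), MIR3142HG, a host gene of microRNAs (5666 bp, 3.67-fold), SLC7A5, an amino acid transporter (6875 bp, 3.999-fold), and DAGLB, a lipase gene (5857 bp, 4.01-fold). Another peak lay within 500 bp of 67 of the 87 (77.0%) and of 66.8% of the stronger wide peaks, and of 27.1% of peaks of 5 kb or less.

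Several coding gene ends lay in the same wide peak in 453 cases, and 110 peaks held more than 1 coding start. The most ends, 23, lay in a 10798 bp peak (81.0-fold) at the protocadherin gamma cluster, but these were an end of DIAPH1, an actin nucleator, and those of protocadherin genes, which act in neuronal adhesion and share a 3′ end, and the peak held no annotated start. A histone gene cluster on chromosome 6 put 10 ends and 5 starts into 10060 bp (163-fold): H2BC13, H2AC13, H3C10, H2AC14 and H2BC14. A peak of 13733 bp (124-fold) held ends of NCAPH2, a condensin subunit, SCO2, a copper chaperone of mitochondria, TYMP, thymidine phosphorylase, and CIMAP1B. A peak of 10944 bp (292-fold) held ends of VEGFB, FKBP2 and PPP1R14B, and a peak of 13525 bp (183-fold) held ends of KIF22, MAZ, PRRT2 and PAGR1.

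Of 19122 autosomal coding genes, 1422 (7.44%) had an annotated end in a wide peak, which is 9.26% of the 15358 with an end in any autosomal peak. The gene lists that follow are read against that 7.44% as counts only. They were chosen with results of these data known, list members can share a peak, and a higher share is no test. A gene also counts where a peak reaches only the end far from its start. In that way STAT3 and STAT5A counted through 1 shared peak that covered 3.95% and 7.23% of them. So did GFI1B (5.57% covered), IDH2 (2.88%, 9.09-fold) and RUNX3 (6.03%). EEF2 (5.91-fold) and AZU1 (5.31-fold) counted through weak peaks that did not hold their annotated start.

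Genes of the actin cytoskeleton had the largest share, 15 of 17. ACTB, cytoplasmic actin, lay in a peak of 15578 bp (133-fold), PFN1, which loads actin monomers, in 13124 bp (210-fold) and ACTG1, the other cytoplasmic actin, in 10821 bp (119-fold). The summit of the PFN1 peak lay 8368 bp from the start of PFN1, in the neighbouring gene RNF167. VASP was overlapped without an end. Some of the 15 counted through the end far from the start, in a peak that covered little of the gene. Such peaks covered 0.14% of MYH9, 1.09% of GSN and 1.54% of CFL1. Genes that feed back on cytokine signalling, with STAT genes and their targets, followed with 15 of 20. Beside MCL1, they included BCL2L1, which encodes the survival protein of late red cell precursors (16715 bp, 261-fold), and CISH, an inhibitor that STAT5 induces (16316 bp, 297-fold), both with the summit within 188 bp of the start.

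Immediate early genes, which answer stimuli within minutes, had 19 of 28. Led by width, these were ZFP36, which destabilises cytokine messages (15607 bp, 213-fold), JUNB, an AP-1 subunit (15585 bp, 237-fold), and KLF6, a zinc finger factor (15180 bp, 199-fold), each of them covered whole. The summit lay 5569 bp from the start of ZFP36, outside the 2561 bp gene. From the starts of JUNB and KLF6 it lay 1375 and 267 bp. Replication-dependent histone genes had 10 of 19, with H3C2 (10233 bp, 136-fold), H3C10 (10060 bp, 163-fold) and H2AC6 with H2BC4 in a shared peak (7206 bp, 187-fold). Housekeeping genes had 8 of 18, with ACTB, EEF1A1, a translation elongation factor (13671 bp, 215-fold), and GAPDH, a glycolytic enzyme (11492 bp, 159-fold).

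Among progenitor transcription factors, 15 of 24 had an end in a wide peak. TAL1 and GATA2 were followed by ZFPM1, the GATA partner also called FOG1 (17767 bp, 182-fold), and the others were RUNX1, FLI1, LMO2, LYL1, IKZF1, GFI1, GFI1B, ETV6, LDB1, NFE2, BCL11A and ZBTB16. Progenitor surface proteins had 4 of 16: CD44, an adhesion receptor (9249 bp, 44.4-fold), SPN, the sialoglycoprotein CD43 (8283 bp, 118-fold), ITGA4, an integrin subunit (5554 bp, 95.2-fold), and KIT.

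Neutrophil and monocyte genes had 12 of 24, led by MPO, SPI1 and CEBPB, a factor of myeloid differentiation (10379 bp, 91.1-fold). Megakaryocyte genes had 8 of 16, led by THBS1, ZYX, a focal adhesion protein (18079 bp, 201-fold), and GP1BB, a subunit of the von Willebrand factor receptor (9718 bp, 66.8-fold). Mast cell and eosinophil genes had 4 of 13, at CLC, the Charcot-Leyden crystal protein (10509 bp, 42.1-fold), EPX, eosinophil peroxidase (10310 bp, 16.1-fold), PRG2, major basic protein (9269 bp, 31.9-fold), and its neighbour PRG3 (8803 bp, 19.0-fold). All 4 were below the median fold of wide peaks. Erythroid genes had 5 of 18, namely TAL1, HBA1 and HBA2, the alpha globins in 1 peak (10278 bp, 51.4-fold), and HBG1 and HBG2, the fetal globins. The summit of the alpha globin peak lay 0.282 kb from HBQ1, which that peak also held whole. HBG1 and HBG2 also shared 1 peak (5965 bp, 37.8-fold), which held HBG2 whole and 28.9% of HBG1.

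Endothelial genes had 3 of 13, at EGFL7, ESAM, a junction protein that platelets also carry (10434 bp, 55.6-fold), and SOX7, a factor of early vessels (6478 bp, 42.1-fold). Noncoding RNA host genes had 9 of 18, against 2.51% of all annotated long noncoding RNA genes. They were led by NEAT1, the scaffold of paraspeckles (18081 bp, 195-fold), MIR142HG (17749 bp, 188-fold) and SNHG3 (15142 bp, 101-fold).

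The MYC network had 4 of 12: MNT, a repressor that competes for MAX (7499 bp, 197-fold), MYC itself (7399 bp, 77.1-fold), MXI1, another repressor of the family (6974 bp, 116-fold), and MLXIP, a glucose-sensing relative (5776 bp, 132-fold). Whether reads from the ectopic MYC of doxee17 add to the peak at MYC was not tested. Genes altered in myeloid leukaemia had 7 of 22, with GATA2, RUNX1 (11476 bp, 101-fold, 66 bp from summit to annotated start) and ETV6 (9187 bp, 63.5-fold) under the widest peaks. That RUNX1 peak held no annotated end of the gene, which lay in another wide peak (5662 bp, 80.9-fold). Ribosome biogenesis genes had 4 of 20, of which BOP1 (7623 bp, 7.18-fold) and TCOF1 (6189 bp, 9.66-fold) were under weak peaks and NCL, nucleolin, under one of 30.4-fold (6393 bp). Cell cycle genes had 5 of 27, led by the cyclins CCND3 (13053 bp, 154-fold) and CCND2 (8980 bp, 92.3-fold) and the inhibitor CDKN1B (6031 bp, 103-fold).

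The lists of lymphocyte, HOX and non-blood genes had few or no members. In lists this short 7.44% comes to about 1 gene or fewer, so each of these counts is near the background share. The count was 0 of 12 for B lymphocyte, hepatocyte, mesenchymal and pluripotency genes alike, 0 of 11 for neuronal, 0 of 10 for skeletal muscle and 0 of 9 for keratinocyte genes. It was 0 of 11 for HOXA, 0 of 9 each for HOXC and HOXD, 1 of 10 for HOXB (HOXB4) and 1 of 14 for T and NK lymphocyte genes (RUNX3). At a threshold of 4000 bp, where all coding genes had 12.4%, 3 of the 12 pluripotency genes had an end in such a peak, so their count of 0 holds for the thresholds of 5000 bp and above that were tried. PDGFRB of the mesenchymal list was crossed by a wide peak inside the gene (6460 bp, 22.98-fold).

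**Figure D4:**
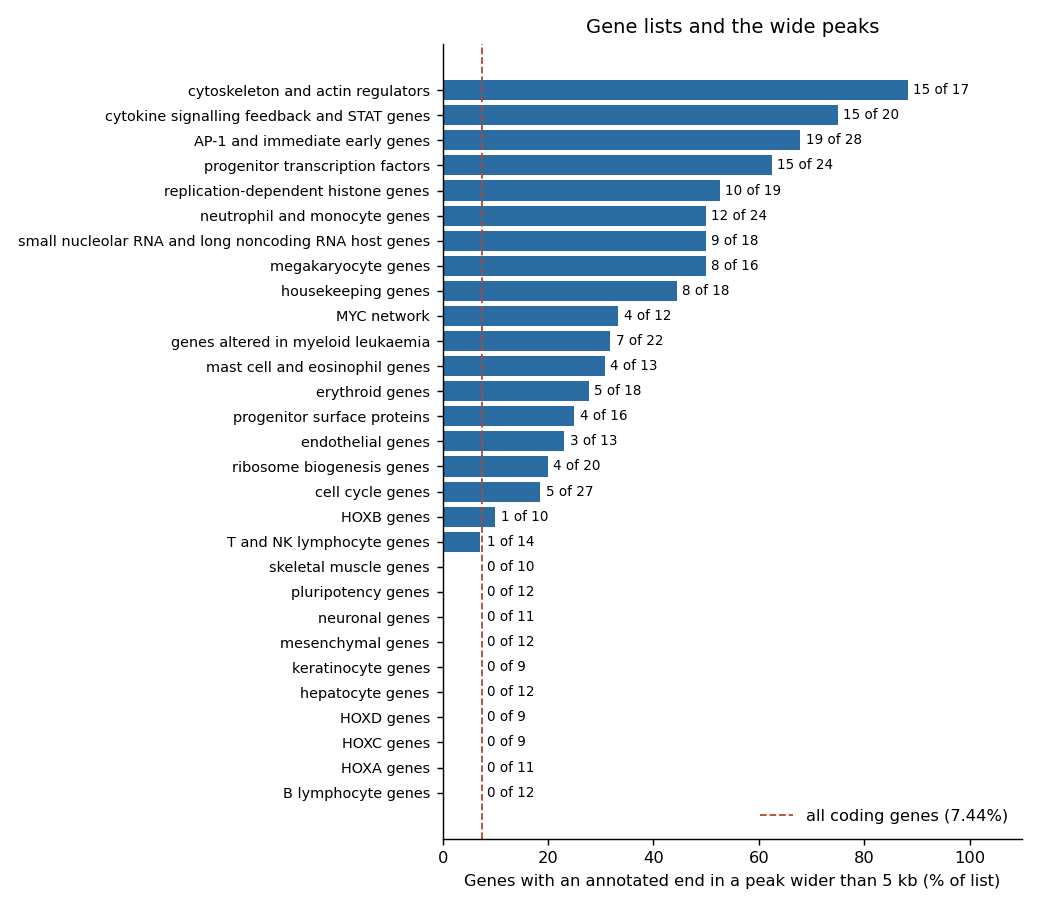
Percent of each gene list with an annotated end in a wide peak, with counts beside the bars and all autosomal coding genes (7.44%) dashed. Lists from cytoskeleton (15 of 17) to HOXB (1 of 10) lie above the line, and those from skeletal muscle downwards are at 0.

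By gene type, wide peaks overlapped 49 of 439 transfer RNA genes (11.2%), 8.60% of coding genes, 60 of 1150 small nucleolar RNA genes (5.22%), 511 of 17795 long noncoding RNA genes (2.87%) and 0.29% of pseudogenes. Longer genes meet a peak more readily, and these types differ in length. Their median lengths, in the same order, were 73, 24490.5, 104, 9072 and 639 bp. Many of the 49 transfer RNA genes lay in a single run of 5 wide peaks on chromosome 1, over repeated units described below. The transfer RNA share therefore leans on that run, where how reads were shared was not tested. The widest of the 99 peaks that overlapped no gene was that on chromosome 4 (chr4:49091300-49113095), 46.3 kb from CWH43. The next was a peak of 15176 bp 26.5 kb from BHLHE40, a repressor of circadian and immune genes (114-fold), then one of 12758 bp on chromosome 1, 687.6 kb from the nearest coding gene (32.3-fold), and one of 11155 bp 46.0 kb from DLK1, an imprinted signalling gene (198-fold). Other wide peaks without a gene lay near the peaks on chromosomes 4 and 1. Whether reads from repeated sequence add to these peaks was not tested, so their widths and folds are uncertain. Among peaks with no coding gene but another gene were MALAT1, a nuclear noncoding RNA (13702 bp, 228-fold), LINC03108 (14149 bp, 144-fold) and LINC01451, 38.9 kb from EGFL7 (12814 bp, 111-fold).

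Wide peaks gathered in runs. Another wide peak lay within 50 kb of 826 (49.5%), within 5 kb of 353, and the smallest gap was 39 bp. Chaining those within 50 kb gave 324 runs, of which 104 had 3 or more members. Of coding genes, 226 were overlapped by 2 or more wide peaks, 55 by 3 or more and 10 by 5 or more. ZMIZ1 was overlapped by 13, between 5.99-fold and 159-fold, which covered 41.1% of its 247.6 kb. GSE1, a subunit of corepressor complexes, had 8 (11.7% of 506.7 kb), and ABCC4, AHRR and ZFPM1 had 6 each, covering 20.8%, 48.5% and 65.5%.

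WDR1, a factor that takes actin filaments apart, had 5 that covered 90.7% of its 42.5 kb, from 4.53-fold to 200-fold, so strong and weak stretches lay side by side. The 200-fold peak also overlapped a ribosomal RNA pseudogene, and whether repeated sequence adds to it was not tested. Other genes with 5 were NEK6, a mitotic kinase, MBP, whose locus also makes transcripts in blood cells, and SEPTIN9, a cytoskeletal protein. RUNX1 had 4 (4.22 to 101-fold), as did SQSTM1, an autophagy receptor (4.24 to 116-fold). RARA, the retinoic acid receptor, had 3 covering 72.8% of 48.5 kb, NOTCH1 had 3 covering 50.5% and CSF1R, the macrophage growth factor receptor, had 3 covering 23.4%. A run on chromosome 1 (chr1:161439431-161473898) had 5 wide peaks over repeated transfer RNA genes that filled 95.8% of 34.5 kb (77.1 to 141-fold). Since its units are copies of each other, how reads were shared among them was not tested.

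**Figure D5:**
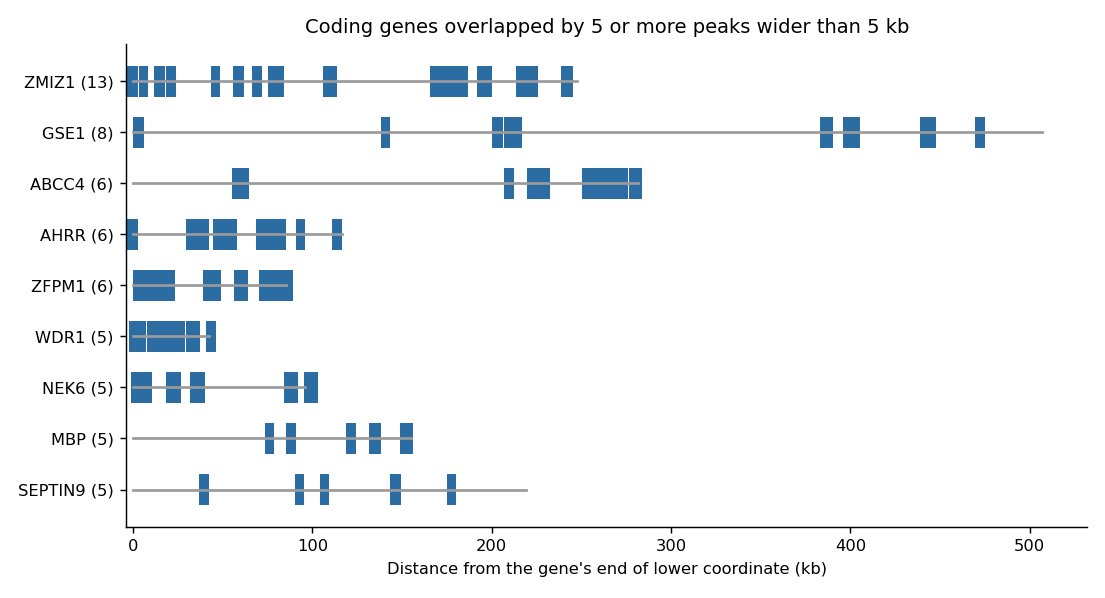
Wide peaks along 9 coding genes that 5 or more of them overlapped (number in brackets), each gene drawn from its end of lower coordinate (kb). Lines are genes and blocks are wide peaks. ZMIZ1 carries 13 over 247.6 kb, and the blocks on WDR1 cover 90.7% of it.

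By chromosome, wide peaks numbered from 1.75 per 10 Mb on chromosome 13 to 20.3 on chromosome 19, with 12.3 on chromosome 17 and 10.8 on chromosome 22. Per 100 coding genes the range was narrower, from 5.46 on chromosome 4 to 12.2 on chromosome 22, and chromosome 19 had 8.20. The widest peaks of chromosomes not named so far were at ZEB2, a repressor of blood and neural crest lineages (17809 bp, 56.5-fold), SQSTM1 with LTC4S, which makes leukotriene C4 (17647 bp, 116-fold), and HSF1, the heat shock factor, with DGAT1 (14406 bp, 30.96-fold). Those of chromosomes 14, 18 and 20 were at RIN3, a Rab5 exchange factor (15307 bp, 97.6-fold), TGIF1, a repressor of TGF-beta signalling (8746 bp, 128-fold), and ZNFX1, an antiviral helicase, with the noncoding gene ZFAS1 (17328 bp, 229-fold).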

How the data were processed

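ATAC-seq libraries were described by the labels. Per the submitters' processing notes, the tools included Bowtie2 2.2.8, Picard 2.2.4 and Trim Galore 0.6.5, with builds hg38 and GRCh38.p13. MACS 2.1.0 and GENCODE 36 appear within the deposited peak names. Read filters, any shift of reads and the libraries pooled are not given in the sources used here. For each peak the authors give a score, a linear fold (ratio) over background at the summit and the −log10 of its p-value and of its q-value, and the q-values were not used. Fold steps are whole numbers of overlaps over 1 background of 94.5 (background plus 1), within 0.1 for 100% of values under 10-fold. Such a background does not correct for copy number or repeats.

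Width was end minus start. Overlap needed 1 bp. Genes came from RefSeq on GRCh38.p14, whose chromosomes match GRCh38.p13. Starts were available for 15100 of 19122 coding genes, so the main measure was either annotated end of a coding gene, and 3′ ends and starts were counted for the 15100. A promoter entry can give an inner transcript start. Gene lists (29, with 473 entries, of which 17 were unmatched or not autosomal) and members were chosen with earlier results of these data known. Genes were named by rule: the 20 widest peaks, 10 of highest and 5 of lowest fold, 5 with most coding ends, 5 widest without a coding gene, up to 3 per list under the widest peaks, 3 on each side of the threshold and the widest per chromosome. Genes with several wide peaks, whole-gene and reach examples, promoters shown, microRNAs and further list members were chosen after their values were seen. Some genes that meet these rules are not reported here. There were no tests. Overlap functions were tested on simulated data. Python 3.11.15, numpy 2.4.6, pandas 2.3.3, scipy 1.17.1 and matplotlib 3.10.9 were used.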

Additional observations from a re-analysis of the deposited data

How the results depend on the processing

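No paired analysis was possible because the list holds no value per library. The number of wide peaks, 1669, was 3154, 522 and 216 at thresholds of 4000, 7500 and 10000 bp, and 3863 when peaks less than 500 bp apart were joined. At the same thresholds the share with a coding gene end (60.7%) was 57.8%, 72.4% and 75.9%, the share of coding genes with an end in a wide peak (7.44%) was 12.4%, 3.22% and 1.59%, and the median fold (72.9) was 65.3, 97.5 and 115. The share that overlapped a coding gene (85.5%) was 90.4% and 92.1% at 7500 and 10000 bp. The share with a coding gene end was 39.8% with the summit within 1 kb, 71.8% with ends of all gene types and 39.6% with annotated starts only, which was added after the data were seen. The more significant 50% of peaks kept 1668 of the 1669, and leaving out rRNA pseudogenes kept 1665. With nearly the same members, these 2 settings could hardly move any of these 5 results, and moved none. Of 87 gene list values at other widths, 24 moved. Pluripotency genes, at 0, are not among them, since their 3 of 12 at 4000 bp lies within the 95% binomial interval of so short a list. Libraries were pooled: depth per library is not known from the list, and some of the libraries alone may give rise to a peak.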

Other observations

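On the X chromosome, 24 of 6968 peaks (0.344%) were wider than 5 kb. The widest, 20039 bp (137-fold), and a neighbour of 14227 bp (87.1-fold) lay over FLNA, which encodes the actin crosslinker filamin A. VSIG4, a complement receptor of macrophages, lay under 14079 bp (83.0-fold), BCOR, a corepressor altered in myeloid leukaemia, under 4 wide peaks, and TMSB4X, thymosin beta 4, under 7616 bp (60.5-fold).

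The 4 peaks left out for ribosomal RNA genes were 40216 bp wide on chromosome 1 (69.0-fold) and 42873, 42801 and 40487 bp on chromosome 21 (600, 577 and 581-fold), each wider than all but the widest of the 1669.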
